A study of Mus musculus with 16 samples.

Results

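The pericentral Wnt target genes described here are 10 genes, Lgr5, Rnf43, Znrf3, Axin2, Nkd1, Tbx3, Sp5, Glul, Slc1a2 and Rhbg. They were chosen by name, each was matched by symbol to 1 Ensembl identifier, and all 10 were found among the 55416 genes that each count file lists. All 10 also passed the filter on low counts, which left 14770 genes for testing. RNA came from livers of wild-type C57BL/6J mice that received an adenovirus through the tail vein at 8 weeks of age. Mice given Ad-FAT10, a vector that carries FAT10, got either 1 mpk of the PPARα agonist pemafibrate (Ad-FAT10 Pema) or its vehicle CMC (Ad-FAT10 CMC) 4 days after the virus. Mice given the control vector Ad-CTRL got the same treatments (Ad-CTRL Pema and Ad-CTRL CMC). Gavages were 18 h and 5 h before the liver was taken, mice were fasted for 5 h, and each of the 4 groups held 4 mice. Every mouse therefore carried an adenovirus, and no uninfected liver was measured. FAT10, encoded by Ubd, is a ubiquitin-like protein that marks other proteins for the proteasome. The comparisons ask how the liver answers pemafibrate when FAT10 is raised, and what Ad-FAT10 does on its own.

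In the liver lobule, endothelial cells of the central vein release Wnt ligands and R-spondin3, and hepatocytes nearest to them hold active β-catenin. β-catenin then acts with TCF/LEF factors on a pericentral program that includes glutamine synthesis, while hepatocytes near the portal vein make urea. Many targets feed back on the pathway: Lgr5 binds R-spondins, Rnf43 and Znrf3 remove Frizzled receptors from the cell surface, and Axin2 and Nkd1 hold back the signal inside the cell.

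Promoter windows, the 250 bases before an annotated RefSeq start on GRCm38.p6, were found for 6 of the 10 genes: Sp5, Slc1a2, Axin2, Glul, Nkd1 and Rnf43. Rnf43 had 2 windows, which makes 7 in all, and Lgr5, Tbx3, Znrf3 and Rhbg had none in the table. The core letters of a TCF/LEF site, CTTTGA, were searched on both strands (TCAAAG on the other), and no other motif was searched. They were present in 2 of the 7 windows and in 4544 of all 32851 windows of that length in the table (13.8%). The pair of windows that hold them and, for contrast, those of the classic targets Axin2 and Glul, which do not, are shown 5′ to 3′ with matches in capitals. Sp5 lies at chr2:70474673-70474922 (+), with matches that begin at -204 and -104 from the start. Slc1a2 lies at chr2:102706188-102706437 (+), with a match on the other strand at -206 and one on the gene's strand at -77, and this RefSeq start is 47.8 kb inside the longer Ensembl gene. Axin2 lies at chr11:108920099-108920348 (+) and Glul at chr1:153899679-153899928 (+).
Sp5: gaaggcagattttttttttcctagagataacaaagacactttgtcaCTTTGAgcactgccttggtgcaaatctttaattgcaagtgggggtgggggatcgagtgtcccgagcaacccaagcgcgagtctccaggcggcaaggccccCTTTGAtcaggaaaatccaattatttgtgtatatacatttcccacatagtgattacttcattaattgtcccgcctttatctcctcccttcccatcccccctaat
Slc1a2: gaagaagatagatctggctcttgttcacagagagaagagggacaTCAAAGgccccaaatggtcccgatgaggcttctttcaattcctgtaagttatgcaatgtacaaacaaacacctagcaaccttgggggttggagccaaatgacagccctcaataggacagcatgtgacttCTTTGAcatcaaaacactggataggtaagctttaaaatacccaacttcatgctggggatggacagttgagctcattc
Axin2: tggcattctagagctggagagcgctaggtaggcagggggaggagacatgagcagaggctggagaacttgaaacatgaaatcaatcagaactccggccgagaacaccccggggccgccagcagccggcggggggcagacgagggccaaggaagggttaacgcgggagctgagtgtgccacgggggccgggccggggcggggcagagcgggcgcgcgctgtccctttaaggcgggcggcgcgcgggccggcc
Glul: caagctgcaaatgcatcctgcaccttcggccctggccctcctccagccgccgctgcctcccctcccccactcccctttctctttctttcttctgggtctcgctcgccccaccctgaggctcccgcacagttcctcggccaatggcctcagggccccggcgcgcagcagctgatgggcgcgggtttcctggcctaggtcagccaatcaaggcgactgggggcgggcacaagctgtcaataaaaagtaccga
GC content was 46.0% in the Sp5 window and 44.8% in the Slc1a2 window, and 69.2% and 64.8% in those of Axin2 and Glul. A match is a string of letters and not a measured binding site, and windows without one may lie far from the elements that act on a gene.

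The libraries held 18663498 to 28898229 counts. Levels are given as CPM, counts relative to the TMM-scaled library size. Relative to the unscaled library totals, a gene with 0 counts could lie at up to 0.104 to 0.161 CPM (counting error only). Ubd averaged 459.8 ± 64.3 CPM in Ad-FAT10 Pema, 237 ± 116 in Ad-FAT10 CMC, 27.5 ± 14.5 in Ad-CTRL Pema and 11.2 ± 3.05 in Ad-CTRL CMC livers (SD, n = 4 each, as in every group mean below). All Ad-FAT10 libraries were above all Ad-CTRL libraries, so the labels held. Within Ad-FAT10, every Pema library (391.3 to 545.8 CPM) was also above every CMC library (110.5 to 339.3 CPM). Comparisons of Pema with CMC in Ad-FAT10 livers, and the interaction, therefore also set unlike Ubd levels side by side. Vector load per liver was not measured, so an effect of FAT10 and one of a different viral dose cannot be told apart. The counts also do not tell vector-derived from endogenous Ubd, and the promoter in the vector is not given in the sources used here. Pemafibrate raised all 9 PPARα targets of a check list in both adenoviruses. The 14 hepatocyte markers, Alb and Apoa1 among them, were present in every group, with summed levels of 59370 to 83610 CPM in Ad-FAT10 Pema, 80030 to 107800 in Ad-FAT10 CMC, 94670 to 125600 in Ad-CTRL Pema and 116900 to 148000 in Ad-CTRL CMC livers. These are whole livers, in which fewer cells of a type and less RNA per cell cannot be told apart. For the adenovirus comparisons the scaling matters: with library totals in place of TMM the median log2 change of all genes moved to 0.28 under CMC and 0.34 under Pema, against -0.01 and -0.02 with TMM.

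Per unit of transcript length the genes spanned a wide range of levels. Glul stood first in each group, at 752 ± 153 TPM (counts per exon length, as a share of the library) in Ad-FAT10 Pema, 839.8 ± 76.2 in Ad-FAT10 CMC, 874.5 ± 98.9 in Ad-CTRL Pema and 809.5 ± 53.7 in Ad-CTRL CMC livers. Slc1a2 followed, at 13.1 ± 4.57, 28.0 ± 4.47, 19.8 ± 2.07 and 28.7 ± 3.49 TPM in the same 4 groups. In Ad-FAT10 Pema livers the Slc1a2 libraries overlapped those of the next gene, Tbx3 (12.7 ± 2.14 TPM), and in the other groups they lay above it. Tbx3 and Rnf43 came after it in every group and overlapped in both CMC groups. Znrf3, Axin2, Nkd1 and Sp5 filled places 5 to 8 in an order that changed from group to group, between 1.62 and 4.35 TPM in the mean. The lowest levels were those of Rhbg and Lgr5. Lgr5 was last in both Pema groups (0.335 ± 0.158 TPM with Ad-FAT10 and 0.342 ± 0.156 with Ad-CTRL) and in the place before the last in both CMC groups (1.34 ± 0.689 and 1.24 ± 0.133). TPM is relative to each library's own total and carries no TMM scaling, so Glul looks more even here than in the scaled CPM below.

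**Figure D1:**
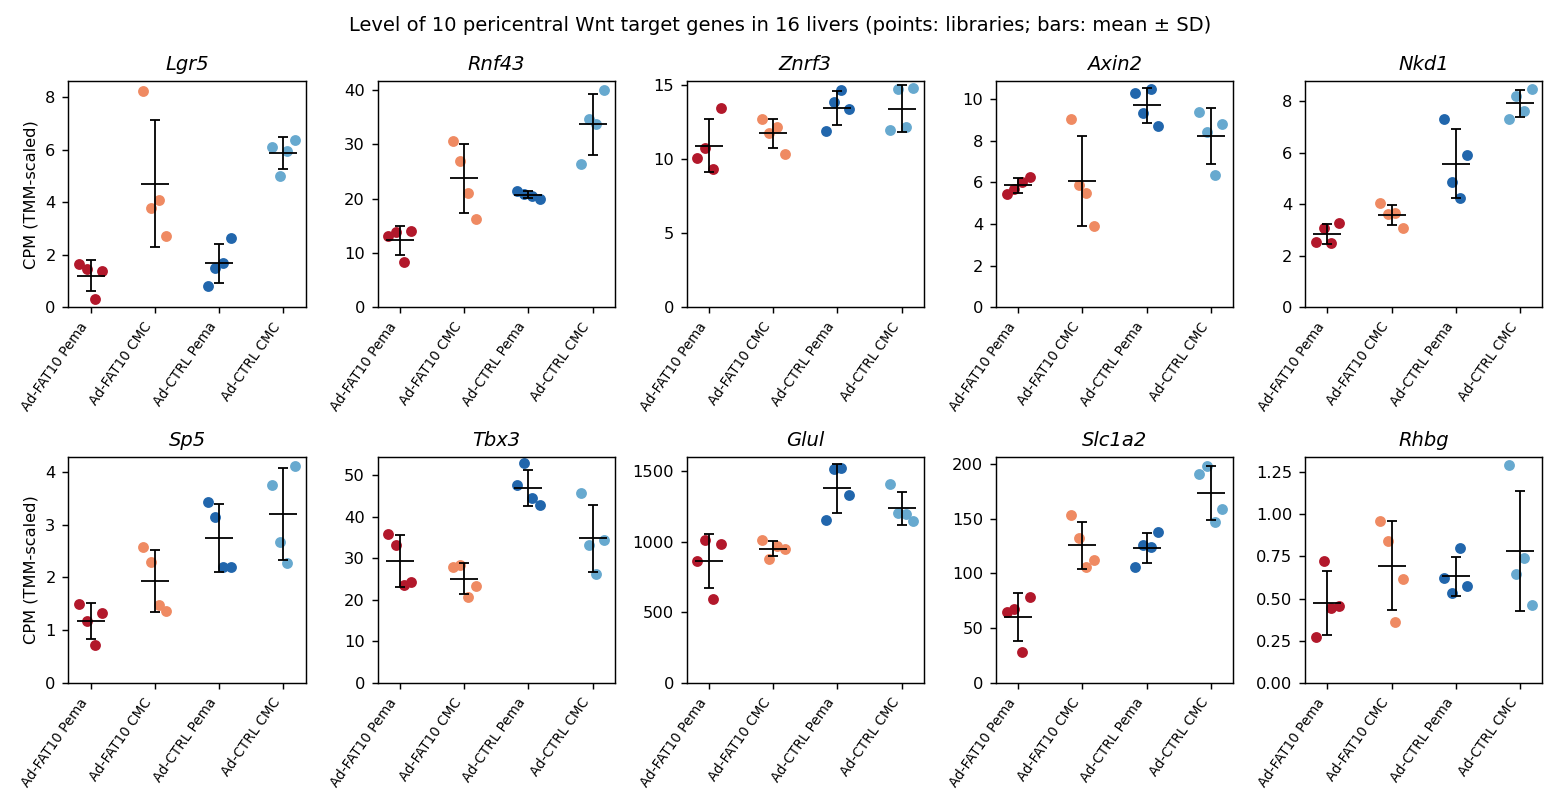
Level of each of the 10 genes in every library, in CPM after TMM scaling on linear axes that start at 0, with the 4 groups side by side (points are livers, bars the mean ± SD, n = 4). Lgr5, Rnf43 and Slc1a2 sit lower in the Pema groups than in the CMC groups of the same adenovirus, and Nkd1 sits lower in both Ad-FAT10 groups.

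Pemafibrate lowered a subset of the targets, led by Lgr5 and Rnf43, the receptor for R-spondins and a ligase that R-spondins restrain, and left most of the others without a called change. In Ad-FAT10 livers 3 of the 10 genes fell with Pema against CMC (Lgr5, Rnf43 and Slc1a2) and 0 rose, where 12.4% of all genes tested were called lower and 12.8% higher. In Ad-CTRL livers 3 fell (Lgr5, Rnf43 and Nkd1) and 1 rose (Tbx3), where 14.3% of all genes were called lower and 16.1% higher. Calls are by edgeR's quasi-likelihood test with Benjamini-Hochberg adjustment over the 14770 genes, at a threshold of 0.05, and every adjusted p given is from that test. The median log2 change of the 10 was -0.43 in Ad-FAT10 and -0.26 in Ad-CTRL livers, beside -0.01 for all genes in both.

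Lgr5 (ENSMUSG00000020140, chromosome 10), which binds R-spondins and so amplifies Wnt signals, had the widest response. It had 1.66, 1.45, 0.326 and 1.40 CPM in Ad-FAT10 Pema livers, against 8.21, 3.79, 4.08 and 2.71 CPM in Ad-FAT10 CMC livers. In Ad-CTRL Pema livers it had 0.83, 1.50, 1.70 and 2.64 CPM, against 6.10, 4.99, 5.96 and 6.38 CPM in Ad-CTRL CMC livers. Every Pema library lay below every CMC library of the same adenovirus, and the lowest Ad-FAT10 Pema library rested on 11 counts. The log2 change was -1.97 ± 0.41 (SE) in Ad-FAT10 (adjusted p = 0.00181), a 3.91-fold fall, and -1.79 ± 0.40 in Ad-CTRL (adjusted p = 0.00275), a 3.47-fold fall. Lgr5 did not pass the test between adenoviruses under either treatment (log2 change -0.50 under Pema and -0.33 under CMC).

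Rnf43 (ENSMUSG00000034177, chromosome 11), a membrane ubiquitin ligase that takes Frizzled off the surface, fell with pemafibrate in both adenoviruses. Its levels were 13.1, 13.8, 8.31 and 14.1 CPM in Ad-FAT10 Pema livers, against 30.5, 27.0, 21.0 and 16.3 CPM in Ad-FAT10 CMC livers. With the control vector they were 21.4, 20.9, 20.6 and 19.9 CPM in Ad-CTRL Pema livers, against 26.3, 34.6, 33.7 and 40.0 CPM in Ad-CTRL CMC livers. The groups did not overlap in either adenovirus, and the 4 Ad-CTRL Pema libraries lay within a narrow band. Its log2 change was -0.94 ± 0.18 in Ad-FAT10 (adjusted p = 0.000974) and -0.70 ± 0.18 in Ad-CTRL livers (adjusted p = 0.00657). Both the Lgr5 and the Rnf43 calls held in all 23 alternative analyses of each comparison.

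Znrf3 (ENSMUSG00000041961, chromosome 11), the paralogue of Rnf43 with the same action on Frizzled, was the most even of the 10, and its 4 group means spanned 0.31 on the log2 CPM scale against 1.46 for Rnf43. It ranged from 9.32 to 13.5 CPM in Ad-FAT10 Pema, 10.4 to 12.7 in Ad-FAT10 CMC, 11.9 to 14.7 in Ad-CTRL Pema and 12.0 to 14.8 in Ad-CTRL CMC livers. Its log2 change with Pema was -0.10 (95% interval -0.36 to 0.15) in Ad-FAT10 and 0.00 (-0.25 to 0.26) in Ad-CTRL livers. Neither interval reaches the estimate for Rnf43 in the same adenovirus.

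Because both levels come from the same library, a ratio of 2 members does not depend on how libraries are scaled. The 3 pairs shown were picked after the values were seen, so the ratios are a description without a test. Rnf43 stood at 1.36 ± 0.235 times the TPM of Znrf3 in Ad-FAT10 Pema livers, against 2.41 ± 0.498 times in Ad-FAT10 CMC livers. With the control vector the ratio was 1.86 ± 0.207 in Ad-CTRL Pema livers, against 3.01 ± 0.331 in Ad-CTRL CMC livers. Lgr5 reached 0.112 ± 0.0584 of the TPM of Axin2 in Ad-FAT10 Pema and 0.401 ± 0.0612 in Ad-FAT10 CMC livers. That ratio was 0.0949 ± 0.05 in Ad-CTRL Pema and 0.39 ± 0.0818 in Ad-CTRL CMC livers. For all 3 pairs, Slc1a2 over Glul included, every Pema library lay below every CMC library of the same adenovirus.

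**Figure D2:**
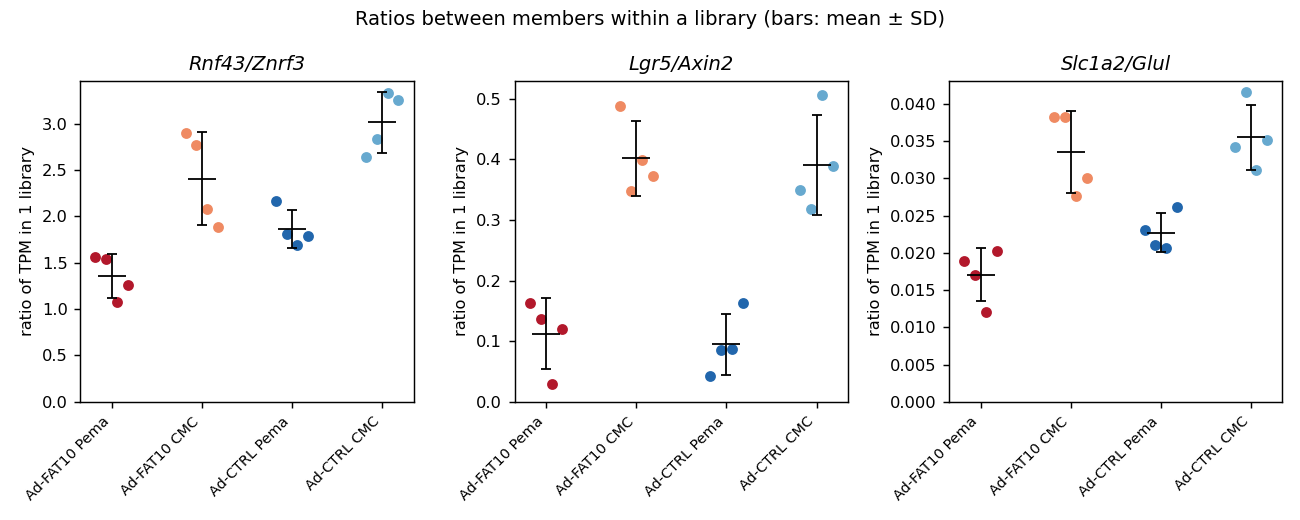
Ratio of TPM between 2 genes within each library for Rnf43 over Znrf3, Lgr5 over Axin2 and Slc1a2 over Glul, by group on axes that start at 0 (points are livers, bars the mean ± SD, n = 4). In each panel the Pema points lie below the CMC points of the same adenovirus, and Lgr5 over Axin2 averages 0.112 in Ad-FAT10 Pema against 0.401 in Ad-FAT10 CMC livers.

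Slc1a2 (ENSMUSG00000005089, chromosome 2) encodes the glutamate transporter GLT-1, which brings into pericentral hepatocytes the substrate of glutamine synthetase. Its levels were 64.7, 67.8, 28.4 and 78.7 CPM in Ad-FAT10 Pema livers, against 152.8, 132.6, 106 and 112 CPM in Ad-FAT10 CMC livers. In the other adenovirus it had 105.5, 126, 124 and 138 CPM in Ad-CTRL Pema livers, against 190.2, 197.8, 147 and 159 CPM in Ad-CTRL CMC livers. Pema libraries lay below CMC libraries without overlap both times. The fall passed the test in Ad-FAT10 livers (log2 change -1.07 ± 0.23, adjusted p = 0.00232). In Ad-CTRL livers it did not (-0.49 ± 0.22, adjusted p = 0.111), and 3 of 23 alternatives called it there. The difference between those responses, -0.58 (95% interval -1.25 to 0.09), had the smallest p of the 10 interaction tests (0.0873 unadjusted, 0.538 adjusted).

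Glul (ENSMUSG00000026473, chromosome 1), glutamine synthetase, is the best known mark of the hepatocytes around the central vein. It had 867, 1010, 595 and 983 CPM in Ad-FAT10 Pema livers, against 1013, 879, 969 and 946 CPM in Ad-FAT10 CMC livers. It had 1155, 1515, 1519 and 1331 CPM in Ad-CTRL Pema livers, against 1408, 1204, 1193 and 1146 CPM in Ad-CTRL CMC livers. Pema and CMC libraries overlapped in both adenoviruses and no change was called. The log2 change was -0.14 (95% interval -0.44 to 0.16) in Ad-FAT10 and 0.16 (-0.15 to 0.46) in Ad-CTRL livers. Slc1a2 over Glul in TPM was 0.017 ± 0.00358 in Ad-FAT10 Pema, against 0.0335 ± 0.0055 in Ad-FAT10 CMC livers. It was 0.0227 ± 0.00257 in Ad-CTRL Pema, against 0.0355 ± 0.00439 in Ad-CTRL CMC livers.

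Rhbg (ENSMUSG00000104445, chromosome 3), an ammonium transporter of the same cells, was at the edge of detection, with 7 to 22 counts in a library. It ranged from 0.27 to 0.725 CPM in Ad-FAT10 Pema, 0.361 to 0.963 in Ad-FAT10 CMC, 0.534 to 0.798 in Ad-CTRL Pema and 0.463 to 1.29 in Ad-CTRL CMC livers. It passed no test, and a change was not detectable at this depth: the interval with Pema ran from -1.27 to 0.21 in Ad-FAT10 and from -1.05 to 0.47 in Ad-CTRL livers. Of its exon bases in the GRCm38 annotation 61.4% are shared with Gm38392 on the same strand, and a counter that drops reads shared by 2 genes would leave them out.

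Axin2 (ENSMUSG00000000142, chromosome 11) builds the destruction complex that breaks β-catenin down, and is a general readout of the pathway. It had 5.44, 5.68, 6.02 and 6.24 CPM in Ad-FAT10 Pema livers, against 9.03, 5.85, 5.49 and 3.91 CPM in Ad-FAT10 CMC livers. It had 10.3, 9.35, 10.5 and 8.68 CPM in Ad-CTRL Pema livers, against 9.39, 8.41, 6.33 and 8.80 CPM in Ad-CTRL CMC livers. The Ad-FAT10 CMC livers differed more among themselves than any other group, and pemafibrate changed Axin2 in neither adenovirus by the test. The log2 change was -0.04 (95% interval -0.43 to 0.34) in Ad-FAT10 and 0.24 (-0.14 to 0.62) in Ad-CTRL livers.

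Nkd1 (ENSMUSG00000031661, chromosome 8) binds Dishevelled and dampens the signal. It had 2.55, 3.09, 2.49 and 3.28 CPM in Ad-FAT10 Pema livers, against 4.04, 3.63, 3.65 and 3.09 CPM in Ad-FAT10 CMC livers. It had 7.31, 4.86, 4.24 and 5.90 CPM in Ad-CTRL Pema livers, against 7.33, 8.22, 7.63 and 8.49 CPM in Ad-CTRL CMC livers. In Ad-CTRL livers it fell with Pema (-0.50 ± 0.16, adjusted p = 0.019), although the highest Pema library (7.31 CPM) lay close to the lowest CMC library (7.33 CPM). That call was lost without Ad-CTRL CMC replicate 4, Ad-CTRL Pema replicate 2 or Ad-CTRL Pema replicate 3 (highest adjusted p 0.0789). In Ad-FAT10 livers the change was not called (-0.33, adjusted p = 0.156).

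Neither transcription factor had a called fall with pemafibrate. Tbx3 (ENSMUSG00000018604, chromosome 5), a T-box factor, had 35.8, 33.3, 23.6 and 24.3 CPM in Ad-FAT10 Pema livers, against 27.9, 28.3, 20.7 and 23.3 CPM in Ad-FAT10 CMC livers. It had 47.6, 52.8, 44.5 and 42.9 CPM in Ad-CTRL Pema livers, against 45.6, 33.1, 26.2 and 34.4 CPM in Ad-CTRL CMC livers. It rose with Pema in Ad-CTRL livers (0.43 ± 0.16, adjusted p = 0.0484), with overlapping groups, and the call was lost in 14 of 23 alternatives (highest adjusted p 0.158). Tbx3os1, its antisense partner, shares 115 exon bases with it and had 104 to 391 counts a library. Sp5 (ENSMUSG00000075304, chromosome 2), a zinc finger factor of the Sp family, had 1.50, 1.18, 0.712 and 1.33 CPM in Ad-FAT10 Pema livers, against 2.57, 2.29, 1.48 and 1.37 CPM in Ad-FAT10 CMC livers. It had 3.42, 3.15, 2.19 and 2.20 CPM in Ad-CTRL Pema livers, against 3.75, 2.68, 2.27 and 4.12 CPM in Ad-CTRL CMC livers. Sp5 was not called with Pema in either (-0.70, adjusted p = 0.07 in Ad-FAT10, and -0.22, adjusted p = 0.579 in Ad-CTRL).

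**Figure D3:**
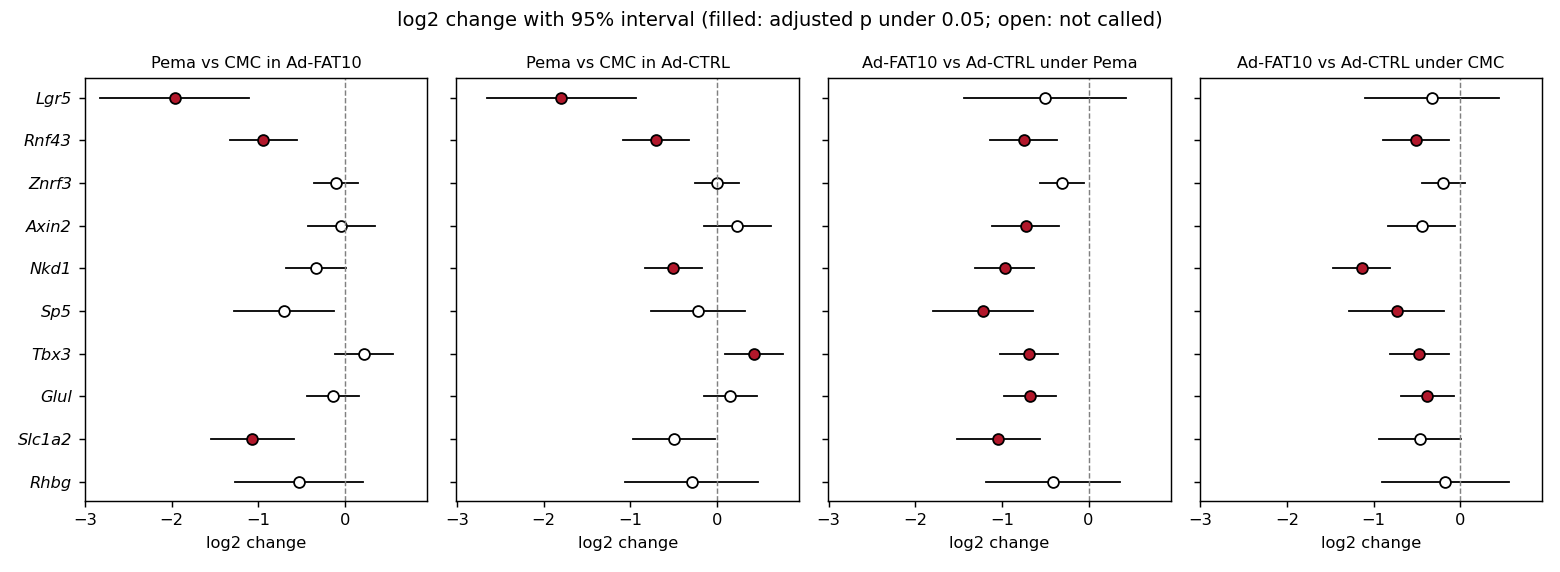
Log2 change with its 95% interval for the 10 genes in each comparison, filled where the gene was called at an adjusted p under 0.05 by edgeR's quasi-likelihood test. With pemafibrate Lgr5 lies furthest from 0 in both adenoviruses (-1.97 and -1.79), and in both adenovirus comparisons all 10 estimates lie below 0 on the TMM scale.

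With TMM scaling, Ad-FAT10 lowered 7 of the 10 genes under Pema and 5 under CMC, and with library totals 3 and 1. Under Pema 7 of the 10 genes were lower in Ad-FAT10 than in Ad-CTRL livers and 0 were higher, where 20.5% of all genes were called lower and 21.1% higher. Under CMC 5 were lower and 0 higher, where 20.0% of all genes were called lower and 22.3% higher. All 10 estimates were below 0 under both treatments, as were 51.7% of all genes under Pema and 50.8% under CMC. Median log2 changes of the 10 were -0.71 under Pema and -0.45 under CMC. Those counts depend on the scaling. With library totals 3 were lower under Pema (Slc1a2, Nkd1 and Sp5) and 1 under CMC (Nkd1), where 5.59% and 7.09% of all genes were called lower and 48.5% and 42.9% higher. The estimates of Znrf3 (0.06 under Pema, 0.10 under CMC) and, under CMC, of Rhbg (0.11) were then above 0.

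Nkd1 gave the firmest adenovirus difference. Its log2 change was -0.97 ± 0.16 under Pema (adjusted p = 0.000139) and -1.14 ± 0.16 under CMC (adjusted p = 2.23e-05), with no overlap between Ad-FAT10 and Ad-CTRL libraries under either treatment. It was called in all 23 alternatives of both comparisons, and with library totals the change was -0.61 under Pema and -0.85 under CMC. Sp5 was -1.22 ± 0.27 under Pema (adjusted p = 0.00166), without overlap and called in all 23 alternatives, and -0.74 ± 0.26 under CMC (adjusted p = 0.0303), with overlap. Slc1a2 was -1.04 ± 0.23 under Pema (adjusted p = 0.00176), also called in all 23, and was not called under CMC (-0.46, adjusted p = 0.107).

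The remaining calls were smaller. Glul was -0.68 ± 0.14 under Pema (adjusted p = 0.00112) and -0.38 ± 0.14 under CMC (adjusted p = 0.0415), and in both cases the Ad-FAT10 libraries lay below all Ad-CTRL libraries in TMM-scaled CPM. With library totals Glul was -0.31 (adjusted p = 0.0521) and -0.09 (adjusted p = 0.615). Tbx3 (-0.68 under Pema, -0.47 under CMC) and Rnf43 (-0.75 and -0.51) were called in both, and Axin2 under Pema alone (-0.73, against -0.45 with adjusted p = 0.0596 under CMC). None of these was called with library totals. Znrf3 under Pema stopped just short of the threshold (-0.30, adjusted p = 0.0507).

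Under CMC the calls other than that of Nkd1 also rest on single libraries. The Nkd1 call held with any single library left out, and leaving out 1 library gave 1 to 6 calls. Ad-FAT10 CMC replicate 1 was the highest of its group for 9 of the 10 genes, and it had the lowest Ubd level of that group (110.5 CPM, beside 167, 339 and 330.2). Without Ad-FAT10 CMC replicate 3 or replicate 4 the 5 calls dropped to 1, and without Ad-CTRL CMC replicate 1 to 2. Without Ad-CTRL CMC replicate 2 or replicate 4 they were 3. Under Pema, Ad-FAT10 Pema replicate 3 was the lowest of its group for 8 of the 10 genes, among them Lgr5, Slc1a2 and Glul, and its hepatocyte marker sum was the highest of the group (83610 CPM). That library, too, had the lowest Ubd level of its group (391.3 CPM, beside 545.8, 442.4 and 459.6). A link between Ubd and member levels was not tested. Leaving it out gave 7 calls between adenoviruses under Pema and 3 with Pema in Ad-FAT10 livers, the same counts as with it, and between adenoviruses under Pema leaving out any single library gave 7 or 8.

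**Figure D4:**
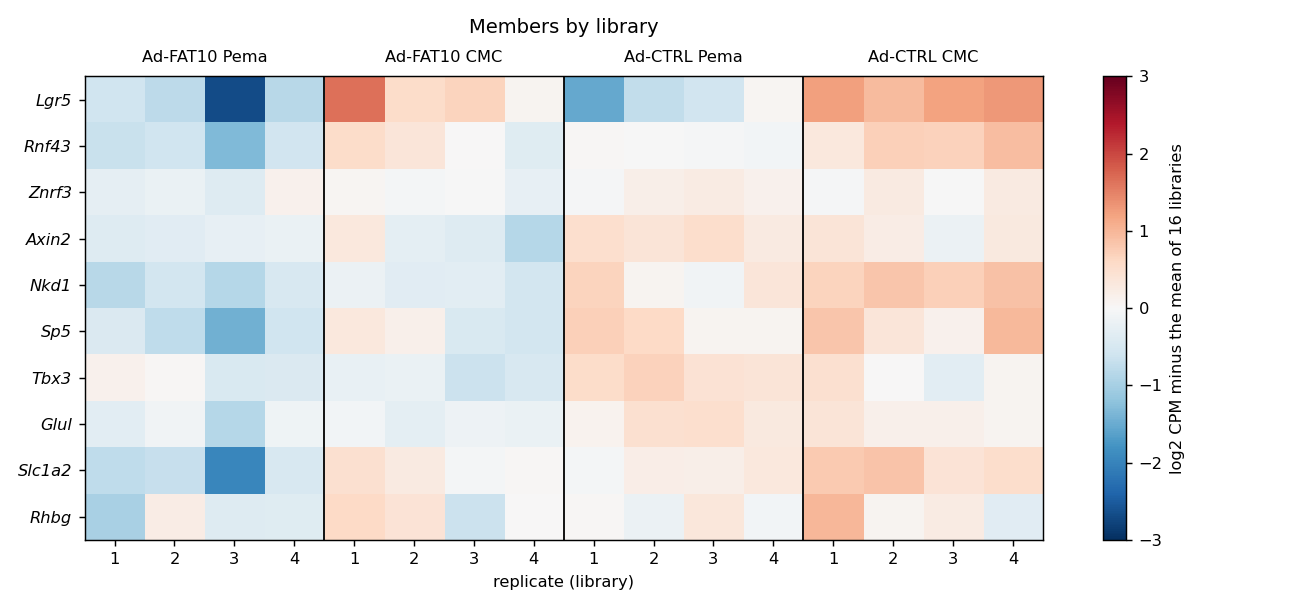
Log2 CPM of the 10 genes in the 16 libraries, each gene centred on its own mean, with libraries in the order Ad-FAT10 Pema, Ad-FAT10 CMC, Ad-CTRL Pema and Ad-CTRL CMC. Values run from -2.68 to 1.66, with the lowest for Lgr5 in Ad-FAT10 Pema replicate 3, and Znrf3 varies least.

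Whether pemafibrate acted differently on the set in Ad-FAT10 livers was tested by the interaction. By edgeR's quasi-likelihood test 0 of the 10 genes were called, where 26 of 14770 genes were called (0.176%), and 0 of the 10 had an unadjusted p under 0.05, by edgeR (10.7% of all genes) or by DESeq2. DESeq2 called 0 of the 10 and 116 of 14759 genes (0.786%). The intervals are wide: that of Lgr5 ran from -1.38 to 1.03 and that of Rnf43 from -0.78 to 0.30, and missing the threshold does not show that the responses were equal.

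Upstream of the set, Rspo3 was lower with Ad-FAT10 under both treatments and with both scalings, while calls for Wnt2 and Wnt9b depended on the scaling. None of these 3 ligands was called with pemafibrate. Rspo3, the R-spondin of the central vein, averaged 2.30 ± 0.363 CPM in Ad-FAT10 Pema against 4.60 ± 0.866 in Ad-CTRL Pema livers, and 2.47 ± 0.257 in Ad-FAT10 CMC against 4.30 ± 0.641 in Ad-CTRL CMC livers. It fell with Ad-FAT10 under Pema (-0.99 ± 0.17, adjusted p = 0.000171) and under CMC (-0.80 ± 0.17, adjusted p = 0.00113), also with library totals (-0.63 and -0.51). Wnt2 fell under Pema (-0.79, adjusted p = 0.0379) and CMC (-1.05, adjusted p = 0.00861), and Wnt9b under Pema (-0.80, adjusted p = 0.0461) but not CMC (-0.61, adjusted p = 0.126). With library totals neither of them was called, though Wnt2 under CMC stopped just short (-0.76, adjusted p = 0.0522). Wnt2 under Pema was then -0.44, and Wnt9b -0.44 under Pema and -0.32 under CMC (highest adjusted p 0.424). Against CMC, Pema gave -0.10 in Ad-FAT10 and 0.10 in Ad-CTRL livers for Rspo3, 0.08 and -0.18 for Wnt2, and -0.09 and 0.09 for Wnt9b. Markers of the sinusoidal endothelium moved beside them: 9 of 12 were lower with Ad-FAT10 under Pema and 8 under CMC, 4 and 5 with library totals (2 were then higher under Pema), with none of the 12 at 0 in any group. Of all genes 20.5% and 20.0% were called lower with TMM, and 5.59% and 7.09% with library totals. Their summed level was 198 to 301 CPM in Ad-FAT10 Pema and 297 to 449.6 in Ad-CTRL Pema livers, and 191 to 267 in Ad-FAT10 CMC and 274 to 391.5 in Ad-CTRL CMC livers. The part of endothelial cells in the member results was not tested.

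Of the 28 listed ligands and secreted regulators 16 were measured well enough to test. Ad-FAT10 lowered 5 and raised 1 under Pema, and lowered 3 and raised 2 under CMC, where 20.5% and 20.0% of all genes were called lower. Pema lowered 2 and raised 1 in each adenovirus, where 12.4% of all genes were called lower in Ad-FAT10 and 14.3% in Ad-CTRL livers. Apart from the 5 under Pema, these counts of lower ligands are near the shares of all genes, and with library totals Ad-FAT10 lowered 2 and raised 3 under each treatment. Notum, a secreted enzyme that inactivates Wnt ligands and is itself a Wnt target, fell in all 4 comparisons of groups: with Ad-FAT10 by 1.30 (log2) under Pema and 1.39 under CMC, and with Pema by 0.52 in Ad-FAT10 and 0.61 in Ad-CTRL livers. Wnt5a, a ligand of the β-catenin-independent branch, rose with Pema in Ad-FAT10 (1.17 ± 0.22, adjusted p = 0.000704) and in Ad-CTRL livers (1.52 ± 0.25, adjusted p = 0.00011).

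Of the receptors, 6 of the 12 tested were lower with Ad-FAT10 and 0 higher under Pema, and 3 lower and 0 higher under CMC. With library totals 5 were lower and 0 higher under Pema, and 3 lower and 2 higher under CMC. Among all genes 20.5% were called lower under Pema and 20.0% under CMC with TMM. With library totals 5.59% and 7.09% of all genes were called lower, and 48.5% and 42.9% higher. Fzd4, which fell by 1.20 under Pema and 1.02 under CMC, and Fzd8 (-0.93 in both) and Ryk (-0.77 and -0.68) were among them, and those 3 were also lower with library totals. With Pema 3 of the 12 were lower and 1 higher in Ad-FAT10 livers, and 3 lower and 4 higher in Ad-CTRL livers. Of all genes 12.4% were called lower and 12.8% higher in Ad-FAT10, and 14.3% and 16.1% in Ad-CTRL livers. Lgr4, the broadly expressed relative of Lgr5, was lower with Pema: 36.7 ± 6.39 CPM in Ad-FAT10 Pema against 65.8 ± 13.6 in Ad-FAT10 CMC livers (-0.84 ± 0.14, adjusted p = 0.000138), and 43.0 ± 2.73 in Ad-CTRL Pema against 71.2 ± 6.32 in Ad-CTRL CMC livers (-0.73 ± 0.14, adjusted p = 0.000415). Fzd7 rose with Pema (0.57 in Ad-FAT10 and 1.25 in Ad-CTRL livers).

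Inside the cell calls went both ways, and most list counts were near or below the shares of all genes. Ctnnb1, which encodes β-catenin, was higher with Ad-FAT10 (0.22 ± 0.08 under Pema, adjusted p = 0.0379, and 0.30 ± 0.08 under CMC, adjusted p = 0.00658) and was not called with Pema (-0.06 in Ad-FAT10 and 0.02 in Ad-CTRL livers). Of 20 destruction complex and cytoplasmic genes, Ad-FAT10 raised 3 and lowered 6 under Pema, and raised 6 and lowered 3 under CMC. Among all genes 21.1% were called higher and 20.5% lower under Pema, and 22.3% and 20.0% under CMC. With library totals Ad-FAT10 raised 10 and lowered 0 of the 20 under Pema, and raised 11 and lowered 1 under CMC. Of all genes 48.5% and 42.9% were then called higher. Pema raised 2 and lowered 3 in Ad-FAT10 livers, and raised 5 and lowered 3 in Ad-CTRL livers. Among all genes Pema raised 12.8% and lowered 12.4% in Ad-FAT10 livers, and raised 16.1% and lowered 14.3% in Ad-CTRL livers. Ctnnbip1, which blocks the binding of β-catenin to TCF, fell with Pema by 0.64 in Ad-FAT10 and 1.02 in Ad-CTRL livers. Of 18 TCF/LEF factors and cofactors, Tcf7l2, a TCF of hepatocytes, was called in none of these comparisons, and the corepressor Tle1 fell with Pema (-0.34 in Ad-FAT10 and -0.57 in Ad-CTRL livers). Pema raised 1 and lowered 3 of the 18 in Ad-FAT10 livers and raised 3 and lowered 3 in Ad-CTRL livers, and Ad-FAT10 raised 1 and lowered 0 under Pema and raised 1 and lowered 3 under CMC. With library totals 9 of the 18 were higher with Ad-FAT10 under Pema and 10 under CMC, 0 were lower, and the median of all genes rose too.

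Many other pericentral genes fell with each perturbation, while many periportal genes fell with Pema and went both ways with Ad-FAT10. Of all genes 12.4% were called lower with Pema in Ad-FAT10 and 14.3% in Ad-CTRL livers. With Ad-FAT10 20.5% were called lower under Pema and 20.0% under CMC, and 21.1% and 22.3% higher. Of 24 other pericentral genes 12 were lower and 2 higher with Pema in Ad-FAT10 livers, and 13 lower and 1 higher in Ad-CTRL livers. With Ad-FAT10 14 were lower and 2 higher under Pema, and 16 lower and 1 higher under CMC. With library totals 12 were lower and 3 higher under Pema, and 12 lower and 2 higher under CMC, where 5.59% and 7.09% of all genes were called lower. Cyp1a2, a pericentral cytochrome P450, fell with Pema (-1.31 ± 0.19 in Ad-FAT10, adjusted p = 6.04e-05, and -1.21 ± 0.19 in Ad-CTRL livers, adjusted p = 8.83e-05) and with Ad-FAT10 (-0.81 under Pema and -0.71 under CMC). Cyp2e1, another P450 of the zone, was not called with Pema (-0.37 in Ad-FAT10 and -0.17 in Ad-CTRL livers) and fell with Ad-FAT10 (-1.25 under Pema and -1.04 under CMC). Oat, which turns ornithine into a precursor of glutamate, had the same pattern (-0.45 and -0.07 with Pema, not called, and -1.16 and -0.78 with Ad-FAT10). Cyp1a2, Cyp2e1 and Oat were also lower with Ad-FAT10 by library totals, and Oat then passed with Pema in Ad-FAT10 livers (-0.45, adjusted p = 0.0475). Of 20 periportal genes Pema lowered 10 and raised 0 in Ad-FAT10 livers and lowered 12 and raised 1 in Ad-CTRL livers, while with Ad-FAT10 8 were lower and 5 higher under Pema, and 9 lower and 5 higher under CMC. With TMM the median log2 change with Ad-FAT10 was -0.12 under Pema and -0.45 under CMC for these 20. It was -0.73 and -0.67 for the 24 other pericentral genes, and a difference between the lists was not tested. With library totals 4 of the 20 periportal genes were lower and 8 higher under Pema, and 4 lower and 5 higher under CMC. Of all genes 48.5% and 42.9% were then called higher. Of the 14 hepatocyte markers, whose zonation was not assessed, 10 were lower with Pema in Ad-FAT10 and 7 in Ad-CTRL livers. With Ad-FAT10 11 were lower under Pema and 8 under CMC, and 0 were higher in each comparison. With library totals 5 were lower and 0 higher with Ad-FAT10 under Pema, and 6 lower and 1 higher under CMC. With TMM the median log2 change of those 14 was -0.50 and -0.43 with Pema and -0.61 and -0.56 with Ad-FAT10, beside -0.43, -0.26, -0.71 and -0.45 for the 10 Wnt targets in the same order. The part of hepatocyte RNA as a whole in the member results was not tested.

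**Figure D5:**
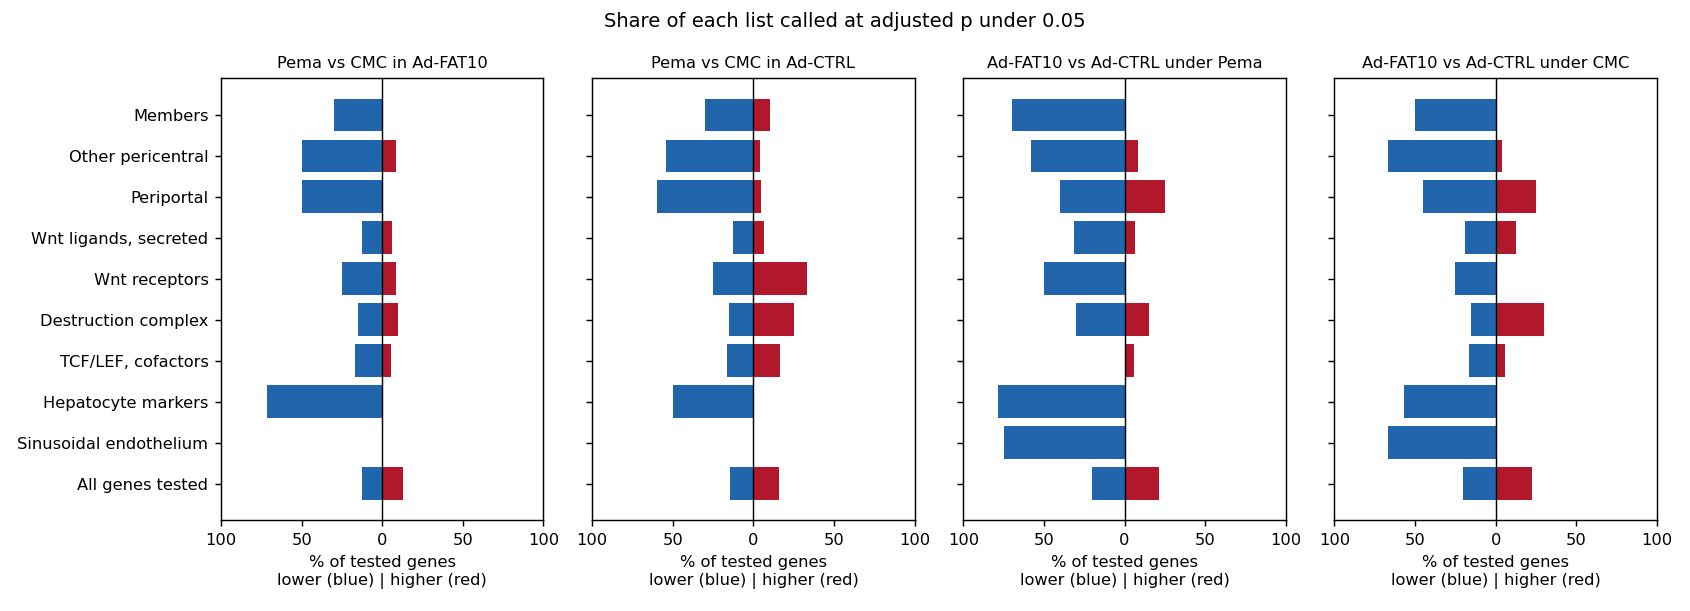
Share of the tested genes of each list, in percent, called lower (left of 0) or higher (right of 0) at an adjusted p under 0.05 by edgeR's quasi-likelihood test, for the 10 Wnt targets, other pericentral and periportal genes, the Wnt pathway lists, hepatocyte and sinusoidal markers and all genes tested. Of the 12 sinusoidal markers 9 are called lower with Ad-FAT10 under Pema and 8 under CMC, and none with Pema, which was not tested as a difference from the 10 targets.

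Members lay at different distances from each other over the 16 libraries. The measure was the root mean square difference of log2 CPM, each gene centred on its own mean, over all 16 libraries and against 14769 other genes, for Glul, Axin2 and the members whose group means spanned at least 1 log2 unit. It is a description over libraries that share their groups. The measure is not scaled to the size of a gene's changes. A gene with a wide span or few counts therefore lies far from most others, even where the direction is the same. Rnf43 was the fifth nearest gene to Slc1a2 (0.284), after Prr16, Slc16a10, Npr2 and Tmem25. By the measure itself Glul and Znrf3 (0.23) and Axin2 and Tbx3 (0.283) were nearer to each other than that pair, with more genes of the whole table in between. The 5 genes nearest to Rnf43 were Selenoo, Lrit1, Clcn2, 5830473C10Rik and Slc16a10 (0.154 to 0.193). Lgr5 had the widest span of group means (2.39 log2 units). Its nearest genes were Gm4756, Serpina12, Gm8941, Sdr9c7 and Dclk3 (0.422 to 0.502), and of the members Slc1a2 came closest, at rank 116. Glul was nearest to Thrb, Cat, Smarca2, Golph3 and Ebp (0.152 to 0.177), with Znrf3 the closest member at rank 241. Axin2 was nearest to Uhmk1, Letm1, Nadk2, P2ry2 and Maco1 (0.185 to 0.206), with Tbx3 the closest member at rank 374. Nkd1 was nearest to Ramp1, ENSMUSG00000118669, Speg, Sord and Cd59a (0.187 to 0.203), and Sp5 to B630019A10Rik, Haao, Gm6652, Npr2 and Cd59a (0.275 to 0.282).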

How the data were processed

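Liver RNA of 16 mice was sequenced after poly(A) selection, per the labels' protocols. The deposited values are raw counts per Ensembl gene, 1 file for each mouse, with no normalization by the authors. The build was GRCm39, and the tools were STAR 2.7.6 and DESeq2 (2.11.40.6 and also 1.36.0), per the submitters' processing notes. How reads were assigned to genes, by which annotation and with which strand setting, is not given in the sources used, so reads of genes that overlap on opposite strands cannot be told apart. Groups and replicate numbers came from the sample titles, and the labels name no sequencing batch.

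Symbols and exon lengths (for TPM) came from GENCODE M21, an annotation of GRCm38, and 52083 of 55416 identifiers (94.0%) matched. Library totals ran from 18663498 to 28898229 counts. The 24 pairs of replicates were compared by chi-square over genes, and none agreed within sampling noise (14.52 to 119.0 per gene), so all 16 libraries count as separate replicates.

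Counts were fitted in R 4.3.3 with edgeR 4.0.16: filterByExpr left 14770 genes, libraries were scaled by TMM, and a robust quasi-likelihood fit with 1 mean per group used all 16 libraries (common biological coefficient of variation 0.151). The 4 comparisons of groups and the interaction were tested, with Benjamini-Hochberg adjustment over all genes and a threshold of 0.05. The SE is the log2 change divided by the square root of F, so it restates the test. CPM are TMM-scaled. The test was tried on simulated counts with known changes first. Alternatives were limma-voom (limma 3.58.1), DESeq2 1.42.0 and its size factors, no filter on low counts, only the groups compared, the replicate number as a block, each library left out and, added after the data were seen, library totals without TMM.

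The genes and lists were chosen with earlier results of these data known. Named were all 10 genes, up to 4 genes per context list and comparison with the smallest p, 10 fixed genes of the pathway and the zone, and for Glul, Axin2 and members whose group means span at least 1 log2 unit the 5 genes with the nearest pattern. Tcf7l2, Lgr4, Rspo3, Wnt2, Wnt9b, Ctnnb1, Cyp2e1, Cyp1a2, Oat and Ubd are the fixed ones. Not all named genes are printed.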

Additional observations from a re-analysis of the deposited data

How the results depend on the processing

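Each of the 10 genes was recomputed under 23 alternatives in every comparison of groups and 22 in the interaction, where a fit of only the groups compared is not possible. Of 1140 single-gene values 1054 kept direction and side of the threshold, 47 lost a call, 17 gained one and 22 changed sign. Lgr5 and Rnf43 with Pema in both adenoviruses, Slc1a2 with Pema in Ad-FAT10 livers, Nkd1 with Ad-FAT10 under both treatments, and Slc1a2 and Sp5 with Ad-FAT10 under Pema were called in all 23. With library totals, an alternative added after the data were seen, the count with Ad-FAT10 was 3 in place of 7 under Pema and 1 in place of 5 under CMC. Leaving out 1 library gave 3 to 4 calls with Pema in Ad-FAT10, 2 to 5 with Pema in Ad-CTRL, 7 to 8 with Ad-FAT10 under Pema, 1 to 6 with Ad-FAT10 under CMC and 0 to 0 in the interaction. The count of 2 with Pema in Ad-CTRL livers arose without Ad-CTRL CMC replicate 4, Ad-CTRL Pema replicate 2 or Ad-CTRL Pema replicate 3.

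All 22 changes of sign were in values that were not called as reported. Znrf3 with Pema in Ad-CTRL livers was -0.0117 with DESeq2 size factors, -0.0021 with no filter, -0.0812 with library totals, -0.0056 with 2 groups in the fit and -0.0079 with DESeq2, and -0.0458 to 0.06 with 1 library left out. With library totals Znrf3 with Ad-FAT10 was 0.0604 under Pema and 0.10 under CMC, and Rhbg 0.11 under CMC. Axin2 with Pema in Ad-FAT10 livers was 0.0428 with limma-voom. With 1 library left out Axin2 with Pema in Ad-FAT10 livers ran from -0.21 to 0.20, Glul from -0.22 to 0.0023 (the highest without Ad-FAT10 Pema replicate 3), Rhbg with Pema in Ad-CTRL livers from -0.47 to 0.0274, Rhbg with Ad-FAT10 under CMC from -0.35 to 0.15 and the Lgr5 interaction from -0.39 to 0.23. The cause was not tested.

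Deviations of same-numbered libraries correlated at -0.172 to 0.172, over 0.1 in 3 of 24 pairs, and for 5 of 16 libraries the best match had the same number. Pairs with unlike numbers were not set beside them, so whether a replicate number marks a shared batch was not tested. With the replicate block 4 genes were called with Pema in Ad-FAT10, 4 with Pema in Ad-CTRL, 7 with Ad-FAT10 under Pema, 5 with Ad-FAT10 under CMC and 0 in the interaction. Depth limits Rhbg most, at 7 to 22 counts, then Lgr5 with Pema and Sp5.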

Other observations

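Of 15 Wnt targets best known from other tissues that could be tested, 1 was higher and 1 lower with Pema in Ad-FAT10 livers and 3 higher and 3 lower in Ad-CTRL livers, while with Ad-FAT10 2 were higher and 3 lower under Pema, and 3 higher and 4 lower under CMC. With library totals 5 were higher and 3 lower with Ad-FAT10 under Pema, and 5 higher and 2 lower under CMC. Of all genes Pema raised 12.8% and lowered 12.4% in Ad-FAT10 livers, and raised 16.1% and lowered 14.3% in Ad-CTRL livers. Ad-FAT10 raised 21.1% and lowered 20.5% under Pema, and raised 22.3% and lowered 20.0% under CMC. With library totals it raised 48.5% and 42.9% and lowered 5.59% and 7.09%. No difference between this list and the pericentral set was tested. Cd44, a cell surface receptor for hyaluronan, was higher with Ad-FAT10 (log2 change 1.32 under Pema and 1.46 under CMC). Mycl, a relative of Myc, was lower with Ad-FAT10 (-0.94 under Pema and -0.80 under CMC, and -0.58 and -0.51 with library totals), and Myc and Ccnd1 were called in none of the comparisons.

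Marker lists of other cells gave these counts with Ad-FAT10 against Ad-CTRL, with TMM scaling. Of all genes 21.1% were called higher and 20.5% lower under Pema, and 22.3% and 20.0% under CMC. All 8 monocyte and macrophage markers and all 10 proliferation genes were higher under both treatments. Of T and NK markers 7 of 9 were higher under Pema and 8 under CMC, and of neutrophil markers 4 of 5 and 5. Of 9 stellate markers 2 were higher and 4 lower under Pema and 4 lower under CMC, of 8 Kupffer markers 3 were higher and 3 lower under Pema and 2 higher and 3 lower under CMC, of 5 B and plasma markers 3 and 4 were lower, and of 6 cholangiocyte markers 0 and 1 were higher. Of 8 central vein endothelial markers 4 were lower and 1 higher under Pema, and 3 lower and 1 higher under CMC. With library totals 2 central vein markers were lower and 1 higher under each treatment. Stellate markers were then higher for 2 and lower for 3 under Pema, and lower for 2 under CMC. B and plasma markers were lower for 1 and 3, and cholangiocyte markers higher for 3 and 2. Kupffer markers were higher for 4 and 3, and lower for 3 under each. Of all genes 48.5% and 42.9% were then called higher, and 5.59% and 7.09% lower. With Pema, Fabp4, which is on the central vein list and is also a known PPAR target, rose by 3.25 in Ad-FAT10 and 3.65 in Ad-CTRL livers. None of the other 7 on that list was called. With Pema all 5 neutrophil markers were lower in Ad-FAT10 livers and none was called in Ad-CTRL livers, and proliferation genes were lower for 7 of 10 in Ad-FAT10 and 5 of 10 in Ad-CTRL livers, with 1 higher there. Of all genes 12.4% and 14.3% were called lower in those comparisons.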
